A study of Mus musculus with 18 samples.

Results

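Intact tibialis anterior muscle of mice with Bmal1 deleted in skeletal muscle (BKO, 5 libraries) was set against intact muscle of control mice (WT, 5 libraries). The 10 libraries belong to a series of 18, whose other 8 come from limbs with a ligated femoral artery, 4 per genotype. Of the 20922 genes in the deposited table, 12262 averaged 10 or more normalized counts across the 18 libraries and make up the comparison. The tibialis anterior is the fast-twitch muscle at the front of the lower hindlimb. Both genotypes carried Bmal1 alleles flanked by recombination sites (Bmal1 fx/fx) and came from crosses with ACTA-rtTA-TRE-Cre mice, in which a skeletal actin promoter drives a doxycycline-dependent activator of Cre. Doxycycline was given by oral gavage for 3 days, the femoral artery of 1 hindlimb was ligated a week later, and muscle was taken on day 36 after surgery. Intact muscle, which the labels call untreated, is therefore the muscle opposite the ligated limb of an operated mouse. The labels write the Cre genotype as -/- for knockouts but +/+ for controls, and which group is the knockout is taken here from the group names. The sources used here give neither age, sex nor time of day of collection. Nor do the labels say that the libraries of a group come from separate animals, and p-values reflect only the spread among the libraries, which may be technical.

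BMAL1 pairs with CLOCK and binds E-box sequences, where the pair switches on its own repressors (the PER and CRY proteins), the REV-ERB receptors and a set of output transcription factors such as DBP and TEF. Cells of skeletal muscle each run this circadian clock, and in muscle it is known for timing the uptake and burning of fuels. Many clock outputs are metabolic and contractile genes, and the level of each depends on the time of day at which tissue is taken.

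WT libraries held 18.1 ± 2.08 M reads and BKO libraries 20.6 ± 2.40 M (SD, n = 5 each), a difference that did not pass (exact two-sided permutation test, p = 0.111). Genes with at least 1 read numbered 16393 ± 194 in WT and 16747 ± 258 in BKO (SD, n = 5 each, exact permutation p = 0.0476), and the part of depth in this was not tested. The mitochondrial ribosomal RNA mt-Rnr2 took 32.8% ± 1.11 of reads in WT and 35.3% ± 1.12 in BKO (SD, n = 5 each, exact permutation p = 0.0159, where 0.00794 is the smallest p that 5 against 5 libraries can give). The first principal component of the 10 libraries, with 28.7% of variance, set all WT libraries apart from all BKO libraries. The tissue label fits its markers: fast muscle genes such as Myh4 (543476 to 763530 normalized counts over the 10 libraries) were among the highest, while the liver genes Alb and Apoa1 did not exceed 1.18.

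Bmal1 itself, listed as Arntl, read 41.3, 66.3, 47.3, 68.4 and 58.2 normalized counts in the WT libraries and 46.2, 49.5, 50.2, 61.1 and 42.4 in those labelled BKO. The groups overlapped, with means of 56.3 ± 11.8 (SD, n = 5) and 49.9 ± 6.997 (SD, n = 5) and a log2 difference of -0.16 ± 0.17 (SE, limma adjusted p = 0.584). This gene-level count sums all exons and the labels do not name the deleted exon, so it does not check the deletion. In bulk muscle fewer cells of a type and less RNA per cell cannot be told apart, which holds for every gene below.

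Across all genes, 2246 of 12262 (18.3%) passed limma's test at a Benjamini-Hochberg adjusted p under 0.05. Of these, 1050 (8.56% of genes tested) were higher and 1196 (9.75%) lower in BKO. Most changes were small: 356 of the genes that rose and 571 of those that fell did so by at least 1.5-fold, and 111 (0.905%) and 183 (1.49%) by at least 2-fold. By at least 8-fold, 6 rose and 5 fell. The median log2 fold change over all genes was 0.00, with an interquartile range of -0.22 to 0.20. Of the 2246 calls, 1469 were kept whichever of the 10 libraries was left out. For 1761 genes (14.4%) no value of one genotype overlapped the other. Genes with few reads rarely passed: of the 1227 with the lowest mean level 1.96% rose and 3.02% fell, against 22.9% and 20.9% of the 1227 with the highest. The split depends on scaling, since 46.7% of calls were higher as deposited and 62.1% (1403 higher, 858 lower) when libraries were scaled to their reads without mitochondrial genes.

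**Figure D1:**
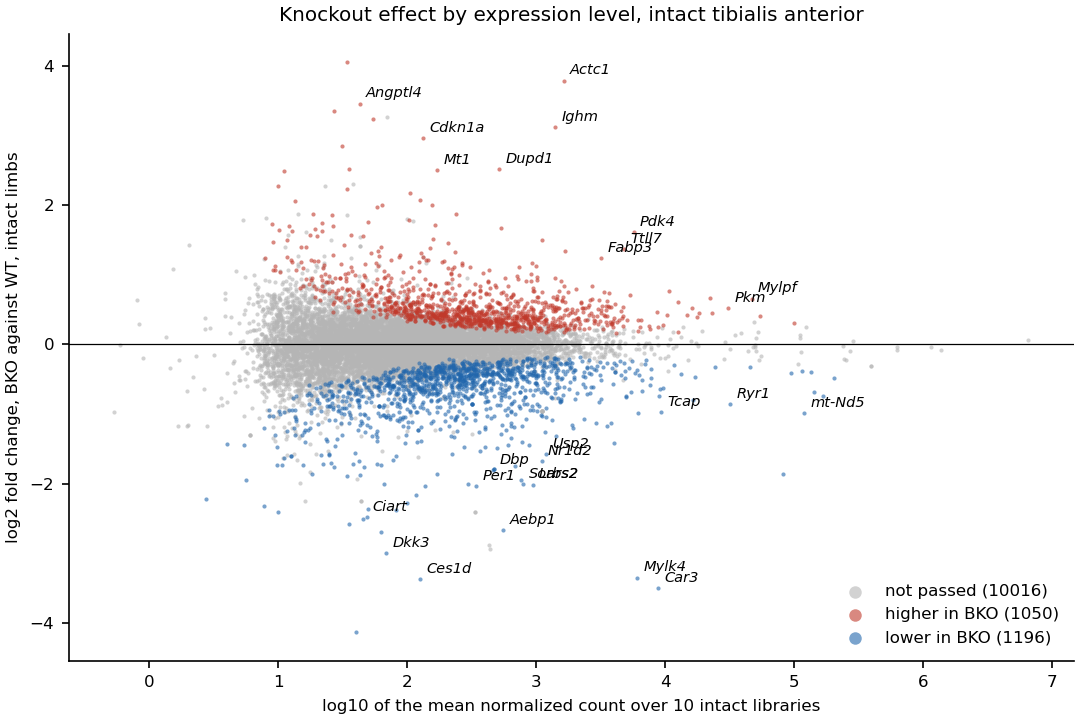
Each point is 1 of the 12262 tested genes, with the log10 mean normalized count over the 10 intact libraries on the x axis and the log2 fold change of BKO against WT on the y axis. Red points (1050) rose and blue points (1196) fell in BKO, grey points did not pass, and the large changes of Car3, Mylk4, Actc1 and Ighm stand apart from other genes of their level.

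The direct targets of the clock activator fell together. Of 18 tested genes known to be activated by BMAL1-CLOCK at E-boxes, 14 fell and none rose, with a median log2 fold change of -1.13. All 14 kept separate ranges in the 2 genotypes. To show the element through which the activator is known to act, the 250 bases before the start of 4 of these genes are printed, from RefSeq promoters on build GRCm38.p6, 5′ to 3′ on the strand of the gene, with each E-box (CACGTG, which reads the same on both strands) in capitals. Ciart, at chr3:95882229-95882478 on the minus strand, held 3 such boxes. Per1 (chr11:69098699-69098948, plus strand), Tef (chr15:81802423-81802672, plus strand) and Bhlhe41 (chr6:145865421-145865670, minus strand) held 1 each. Per1 and Tef each had 2 starts, of which 1 is printed. The box lay before the printed start of Per1 only, and before both starts of Tef.
Ciart: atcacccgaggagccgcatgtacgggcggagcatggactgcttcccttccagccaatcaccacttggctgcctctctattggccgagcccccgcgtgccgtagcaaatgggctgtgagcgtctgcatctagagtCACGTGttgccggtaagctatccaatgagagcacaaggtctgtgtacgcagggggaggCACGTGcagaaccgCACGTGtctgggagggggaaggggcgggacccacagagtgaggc
Per1: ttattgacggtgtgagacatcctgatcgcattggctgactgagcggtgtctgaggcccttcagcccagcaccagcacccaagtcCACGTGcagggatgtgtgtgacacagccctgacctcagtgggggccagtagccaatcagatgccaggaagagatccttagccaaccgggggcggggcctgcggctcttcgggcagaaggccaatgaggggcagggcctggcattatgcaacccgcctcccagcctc
Tef: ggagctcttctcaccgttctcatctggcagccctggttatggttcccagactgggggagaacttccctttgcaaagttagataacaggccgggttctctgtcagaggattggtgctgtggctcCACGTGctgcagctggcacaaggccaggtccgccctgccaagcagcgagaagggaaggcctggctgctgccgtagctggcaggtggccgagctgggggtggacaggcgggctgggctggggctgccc
Bhlhe41: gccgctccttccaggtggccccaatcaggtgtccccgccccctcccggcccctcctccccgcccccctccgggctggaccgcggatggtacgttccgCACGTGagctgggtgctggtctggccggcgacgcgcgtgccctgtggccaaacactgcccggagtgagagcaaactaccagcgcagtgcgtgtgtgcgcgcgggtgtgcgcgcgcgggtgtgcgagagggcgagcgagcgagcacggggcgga
The box began 166 bases before the start in Per1, 127 in Tef and 153 in Bhlhe41, and at 116, 58 and 44 bases in Ciart. Dbp, Nr1d1, Nr1d2, Usp2 and Per3 fell as well without these letters in the window, and Per2 and Bhlhe40 were not matched in the table. Across tested genes, the box was in the window of 16.2% (19 of 117) of those that fell by at least 2-fold, 10.8% (95 of 882) of all that fell, 10.1% of those that did not pass, 71 of 807 of those that rose and 5.06% (4 of 79) of those that rose by at least 2-fold. Over all 27025 promoters of the table the share was 6.86%. These shares describe letters in a window and not binding.

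Among the repressors of the clock, Ciart (chromosome 3, 95878503 to 95882251), which binds and blocks BMAL1-CLOCK, read 64.5, 62.8, 78.8, 102 and 107 normalized counts in WT and 16.003, 12.6, 13.8, 16.7 and 10.2 in BKO. Per1, a period gene, read 570, 590, 552, 541 and 488 in WT and 117, 109, 186, 152 and 115 in BKO. The lowest WT value stood far above the highest BKO value for both, and the log2 fold changes were -2.48 ± 0.25 and -2.03 ± 0.13 (SE, limma adjusted p = 4.84e-07 and 9.21e-10). The other period genes fell less, Per3 by 1.09 and Per2 by 0.94 on the log2 scale, and the cryptochrome Cry2 fell by 0.58. Cry1, the other cryptochrome, did not pass (76.1 to 99.3 normalized counts in WT and 85.7 to 117 in BKO, adjusted p = 0.790). Bhlhe40 and Bhlhe41, which compete for E-boxes, fell by 1.75 and 1.35.

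The receptors and output factors followed. Nr1d1, which encodes REV-ERB alpha, read 679, 1129, 862, 794 and 923 in WT and 385, 329, 335, 234 and 326 in BKO, a log2 fold change of -1.44 ± 0.15. Hlf, of the same family as Dbp and Tef, read 216, 341, 370, 199 and 221 in WT and 104, 186, 93.5, 99.6 and 142 in BKO (-1.10 ± 0.21). Its lowest WT value, 199, lay just above its highest BKO value, 186. Usp2, a deubiquitinase, fell by 1.58 and Tsc22d3, a glucocorticoid-induced regulator, by 1.02.

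**Figure D2:**
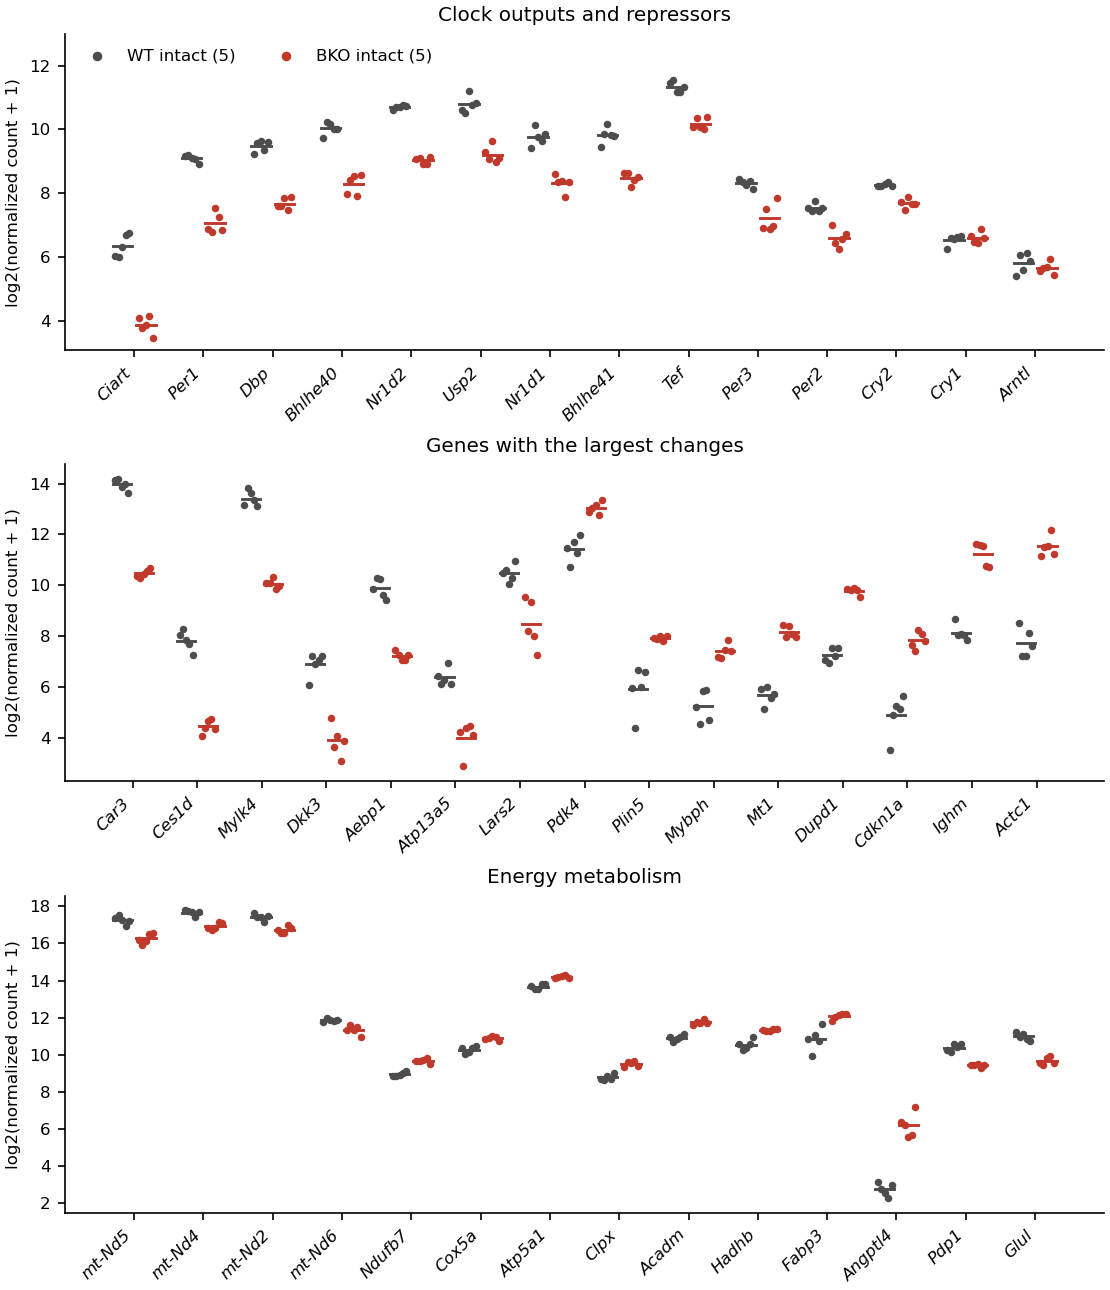
Points are the 5 WT (grey) and 5 BKO (red) intact libraries, bars their means, and the y axis is log2(normalized count + 1), in 3 panels for clock genes, genes with large changes and genes of energy metabolism. The groups stand apart for every gene drawn except Arntl and Cry1, among which Ciart goes from 62.8 to 107 in WT to 10.2 to 16.7 in BKO.

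The 3 largest falls among the named genes were those of Car3, Ces1d and Mylk4. Car3 (ENSMUSG00000027559, chromosome 3, 14863512 to 14872523), a carbonic anhydrase abundant in muscle and fat, read 18098, 18759, 14907, 16295 and 12770 in WT and 1323, 1231, 1408, 1517 and 1649 in BKO. Mylk4 (ENSMUSG00000044951, chromosome 13, 32700834 to 32783954), a myosin light chain kinase, read 9118, 14610, 12507, 10407 and 8774 in WT and 1081, 1089, 1294, 912 and 1000 in BKO. Both were abundant in every WT library and close to uniform in BKO, with log2 fold changes of -3.50 ± 0.11 and -3.35 ± 0.15 (SE, limma adjusted p = 1.84e-14 and 6.57e-12). Ces1d (chromosome 8, 93166068 to 93197838), a carboxylesterase that acts on lipids, read 261, 308, 232, 207 and 153 in WT and 16.003, 20.02, 24.6, 25.95 and 19.5 in BKO, a log2 fold change of -3.37 ± 0.30.

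Of genes known from fibroblasts, Dkk3 (chromosome 7, 112116017 to 112159057), a secreted member of the Dickkopf family, read 67.1, 148, 117, 134 and 147 in WT and 26.7, 11.6, 15.8, 7.53 and 13.6 in BKO (-3.001 ± 0.31). Aebp1, a secreted matrix-binding protein, fell from 964 ± 246 to 147 ± 17.2 normalized counts (SD, n = 5 each). Npr3, the clearance receptor for natriuretic peptides, fell by 2.28 on the log2 scale. Over 25 tested fibroblast markers, Dkk3, Aebp1 and Npr3 included, the median was -0.21. Stab2, a scavenger receptor of sinusoidal endothelium, fell by 2.17.

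Genes of the membrane and cytoskeleton were also among the largest falls. Sorbs3 and Sorbs2, adaptor proteins of the actin cytoskeleton, went from 453 to 520 normalized counts in WT to 102 to 137 in BKO and from 1117 to 1403 to 238 to 378. The ranges were narrow and lay far apart, with log2 fold changes of -2.0007 ± 0.10 and -2.01 ± 0.10. Wnk2, a kinase that acts on chloride cotransporters, fell by 1.94, the small GTPase Rasd2 by 2.03, Atp13a5, a transport ATPase, by 2.37 and Lrtm2, a membrane protein with leucine-rich repeats, by 2.70. In WT Lrtm2 ranged from 73.6 to 199 and in BKO from 9.33 to 23.2, so its error was larger (SE 0.42). Rai14, an actin-associated protein, fell by 1.60, while Twf2, which caps actin filaments, rose (539 to 607 in WT, 1377 to 2026 in BKO, log2 fold change 1.496 ± 0.09).

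Transcription factors and cofactors among the largest falls were Zfp503 (log2 fold change -2.38 ± 0.25), Zfp385b (-1.73 ± 0.31), Zfhx3 (-1.49 ± 0.15) and Vgll2 (-1.57 ± 0.20), the last a muscle partner of TEAD factors. The TEAD factor Tead4 itself rose, from 34.5 to 63.2 normalized counts in WT to 159 to 233 in BKO. Vgll2 and Mical2, an actin-oxidizing enzyme that fell by 1.53, each held 1 E-box, 246 and 165 bases before the start. Wsb1, a ubiquitin ligase adaptor that rose from 49.0 to 53.2 in WT to 92.5 to 145 in BKO, held 2. Their windows are shown since they put the same letters before genes of opposite direction, at chr10:52022252-52022501 (plus strand), chr7:112225586-112225835 (plus strand) and chr11:79254696-79254945 (minus strand).
Vgll2: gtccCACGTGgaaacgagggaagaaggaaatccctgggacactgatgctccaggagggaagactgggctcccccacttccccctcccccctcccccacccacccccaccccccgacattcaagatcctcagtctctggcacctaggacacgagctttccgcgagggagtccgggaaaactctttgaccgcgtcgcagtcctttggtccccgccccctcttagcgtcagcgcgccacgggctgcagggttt
Mical2: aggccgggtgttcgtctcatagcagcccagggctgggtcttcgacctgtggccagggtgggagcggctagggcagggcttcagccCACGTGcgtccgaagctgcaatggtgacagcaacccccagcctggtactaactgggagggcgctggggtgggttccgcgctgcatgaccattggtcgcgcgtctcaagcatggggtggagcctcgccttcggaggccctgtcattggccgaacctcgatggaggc
Wsb1: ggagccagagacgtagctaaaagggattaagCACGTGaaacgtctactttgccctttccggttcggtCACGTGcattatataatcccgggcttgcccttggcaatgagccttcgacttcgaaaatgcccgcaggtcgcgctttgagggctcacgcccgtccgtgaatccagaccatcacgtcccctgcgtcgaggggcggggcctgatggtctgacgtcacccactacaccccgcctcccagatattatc
Adamts1, an extracellular protease, fell by 1.47, Otud1, a deubiquitinase, by 1.67 and Mid1ip1, which promotes fatty acid synthesis, by 1.87. Tmem100 and Tpbgl, both encoding membrane proteins, fell by 1.71 and 1.47.

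The largest rise with abundant reads was that of Actc1 (ENSMUSG00000068614, chromosome 2, 114047282 to 114053548), the cardiac actin of embryonic muscle, which read 367, 147, 149, 277 and 195 in WT and 2268, 2902, 3005, 4629 and 2420 in BKO. It is a near copy of the far more abundant Acta1, so the split of reads between them is uncertain; Acta1 read 109258 to 125555 in WT and 96540 to 129501 in BKO. Mybph, a myosin-binding protein of immature fibres, rose from 22.5 to 57.8 to 141 to 227. The heart myosin Myh6 read 7.88 to 46.5 in WT and 34.5 to 101 in BKO, with overlap. Of 30 tested developmental and stress genes of the sarcomere, 6 rose and 4 fell, so the list did not move in 1 direction.

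Cdkn1a (chromosome 17, 29090976 to 29100727), the cell cycle inhibitor p21, read 10.3, 28.4, 37.4, 33.7 and 49.2 in WT and 202, 171, 298, 268 and 223 in BKO, a log2 fold change of 2.96 ± 0.32. Every BKO value was more than 3 times the highest WT value. Of 29 genes activated by p53, a known inducer of Cdkn1a, 5 rose and 3 fell (5 fell without WT 3), and of 28 cell cycle genes 2 rose, with Cdkn1a in both lists, and 1 fell. Dupd1 (chromosome 14, 21676537 to 21714576), a dual-specificity phosphatase of muscle, read 133, 123, 184, 149 and 183 in WT and 923, 889, 960, 897 and 742 in BKO. Mt1, a metal-binding metallothionein, read 59.4, 34.3, 63.1, 46.2 and 51.2 in WT and 344, 252, 332, 270 and 250 in BKO. Both groups of values lay far apart, with log2 fold changes of 2.52 ± 0.12 and 2.503 ± 0.17.

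Further rises of at least 2-fold came in genes with varied roles. Mrln, which encodes the calcium pump inhibitor myoregulin, rose by 1.88 ± 0.15 on the log2 scale and Casq2, the calsequestrin of slow and heart muscle, by 1.67 ± 0.12. Gamt and Gpt, enzymes of creatine synthesis and of alanine metabolism, went from 24.6 to 45.01 to 72.1 to 111 and from 57.2 to 113 to 203 to 262 normalized counts. Slc16a9, a monocarboxylate transporter, rose by 1.79, Olfm1, a secreted glycoprotein, by 1.9995, Ypel2 by 1.72 and Agt, the angiotensin precursor, by 1.39. Ttll7, a tubulin-modifying enzyme, was abundant (2129 to 2973 in WT, 5901 to 8254 in BKO). Lynx1, which modulates acetylcholine receptors, rose from 831 to 1042 to 2256 to 2733, and Miga2, of the outer mitochondrial membrane, from 58.1 to 105.4 to 164 to 206. Gramd1b, Fam110b, Hip1r, Arhgap24 and Atp1b4 rose by 1.249 to 1.33. Hectd2os, an antisense RNA, rose by 1.97; whether counting used strand is not stated, so its reads and those of Hectd2 cannot be told apart.

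The most abundant genes that passed had varied roles. Besides mitochondrial mRNAs and Rn7sk, given below, those that fell included Tpm1, a tropomyosin (107015 ± 7946 to 80535 ± 5640 normalized counts, SD, n = 5 each), the calcium pump Atp2a1 (-0.40 ± 0.11) and the calcium release channel Ryr1 (-0.86 ± 0.14). Those that rose included the fast myosin light chain Mylpf (36327 ± 3080 to 57582 ± 7802, SD, n = 5 each), the glycolytic enzymes Aldoa and Pkm (0.31 ± 0.08 and 0.52 ± 0.08), the troponin Tnnc2 (0.40 ± 0.07), Srl, Ankrd23 and myoglobin (Mb, 0.67 ± 0.18, with 1 WT value, 24521, inside the BKO range). Atp5b, Atp5a1 and Slc25a4, which make and export mitochondrial ATP, rose by 0.39, 0.53 and 0.45. With no filter on low genes, Atp2a1 and Aldoa missed the threshold (limma adjusted p = 0.0717 and 0.0821).

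Nuclear genes for the respiratory chain, and a part of those for mitochondrial protein synthesis and import, rose. Of 37 nuclear subunits of complex I, the entry point of the respiratory chain, 33 rose and none fell, all 37 had a positive log2 fold change, and the median was 0.39. Mitochondrial ribosomal proteins rose in 29 of 78 cases (median 0.28), assembly factors of the respiratory complexes and enzymes of coenzyme Q synthesis in 25 of 55 (median 0.31), and import and protease genes in 16 of 49 (median 0.23), with 1 fall among the 3 lists. These counts depended on single libraries: 19 ribosomal genes rose without WT library 3, 14 assembly genes without BKO library 2, and 9 and 10 import genes without WT library 4 and WT library 3. Over symbol families with at least 12 tested genes, 112 in all, Ndufa (13 of 14 rose) and Cox (17 of 25 rose) had the highest medians, 0.38 and 0.36. These are short transcripts, with a median length of 1046 bases for complex I and 1807 for the mitochondrial ribosome. With a smooth on transcript length and GC content in each library, 26 and 20 of them rose, with medians of 0.34 and 0.24.

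Ndufb7, a subunit of complex I, shows the size. It read 466, 457, 490, 526 and 555 in WT and 798, 817, 852, 902 and 728 in BKO (log2 fold change 0.72 ± 0.07). The ranges did not overlap. Ndufa13, also of complex I, and Cox5a and Cox8b, subunits of the terminal oxidase, rose by 0.50, 0.62 and 0.61. Clpx, the regulatory subunit of a matrix protease, and the import factor Tomm34 rose by 0.71 and 0.72, and the mitochondrial ribosomal genes Mrps12 and Mrpl45 by 0.53 and 0.42. Coq9, needed for coenzyme Q synthesis, rose by 0.52, while Coq10b, which binds coenzyme Q, read 168 to 189 in WT and 59.0 to 69.9 in BKO and was the 1 member of its list to fall (-1.396 ± 0.14). Of 33 genes for the making, fusion, fission and DNA upkeep of mitochondria, 5 rose and 2 fell, among them the uncoupling protein Ucp3 (0.77 ± 0.16).

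Messenger RNAs encoded in the mitochondrial DNA went the other way. Of 13 tested, 5 fell and none rose, with a median of -0.33 (3 fell without BKO library 5); mt-Co2, listed at 0 in all WT libraries, did not pass. The complex I subunit mt-Nd5 read 167380, 190805, 159811, 123438 and 149423 in WT and 75147, 62589, 71928, 94240 and 96476 in BKO, a log2 fold change of -0.99 ± 0.16 (limma adjusted p = 0.00013). Another subunit, mt-Nd4, read 225195, 223491, 210859, 173953 and 209510 in WT and 115247, 109206, 115773, 144976 and 140339 in BKO (-0.74 ± 0.13). All BKO values lay below all WT values for both, and mt-Nd2 fell by 0.68 in the same way. The falls of mt-Nd6 (-0.51 ± 0.15) and mt-Atp8 (-0.33 ± 0.11) were less firm. Without WT library 3 or BKO library 5 the adjusted p of mt-Nd6 was 0.0554 or 0.0677, and mt-Atp8 kept its call in 2 of the 10 fits that left out 1 library (0.0600 to 0.117 in the others), with a log2 fold change of -0.01 after the smooth on length and GC content. With libraries scaled to reads without mitochondrial genes, mt-Nd6 (0.0514) and mt-Atp8 (0.154) did not pass. As a share of all reads, the mitochondrial mRNAs took 9.35% ± 0.848 in WT and 7.77% ± 0.492 in BKO (SD, n = 5 each, exact permutation p = 0.0159), while mt-Rnr2 rose in share as given above. Lars2 (chromosome 9, 123366927 to 123462666), the mitochondrial leucyl-tRNA synthetase, read 1423, 1563, 1064, 1252 and 2009 in WT and 736, 296, 648, 257 and 151 in BKO. It fell (-2.01 ± 0.34) while the mitochondrial synthetases Cars2 and Tars2 rose by 0.99 and 0.61, and of 37 aminoacyl-tRNA synthetases 7 rose and 2 fell.

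Genes of fatty acid use were the other energy group to lean upward. Of 52 genes for uptake, activation and beta-oxidation of fatty acids, 23 rose and 3 fell (median 0.27). Acadm, the medium-chain dehydrogenase, read 2009, 1639, 1871, 2022 and 2253 in WT and 3140, 3529, 3378, 3951 and 3395 in BKO (log2 fold change 0.83 ± 0.09). The subunits of the trifunctional protein, Hadha and Hadhb, rose by 0.65 and 0.79 with ranges apart. Fabp3, the fatty acid carrier of oxidative muscle, read 1876, 978, 2146, 1705 and 3208 in WT and 3655 to 4696 in BKO (1.24 ± 0.20), and its pseudogene Fabp3-ps1, which can take its reads, rose too. Angptl4 (chromosome 17, 33773750 to 33781830), a secreted inhibitor of lipoprotein lipase, read 7.74, 5.92, 4.93, 3.85 and 7.02 in WT and 80.9, 72.7, 47.3, 50.2 and 148 in BKO. Its log2 fold change was 3.46 ± 0.32, from a low WT level.

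Lipid storage and synthesis did not share a direction: 6 of 61 genes rose and 7 fell. Plin5, which coats lipid droplets beside mitochondria, read 60.7, 20.1, 99.5, 62.6 and 96.3 in WT and 222 to 256 in BKO. Pnpla3, a lipid droplet protein, rose from 7.11 to 15.1 to 44.3 to 84.6. Ces1d and Mid1ip1, above, were the largest falls.

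Genes for glucose use went both ways, 16 of 56 up and 11 down. Pdk4, the kinase that switches off pyruvate dehydrogenase, read 2788, 1680, 3345, 2456 and 4080 in WT and 7635, 8329, 9032, 7011 and 10502 in BKO (log2 fold change 1.61 ± 0.19). Pdp1, the phosphatase that switches it on, read 1209, 1135, 1534, 1386 and 1510 in WT and 695, 692, 731, 637 and 699 in BKO (-0.96 ± 0.09). The kinase rose and the phosphatase fell in all libraries without overlap. Ppp1r3a, which anchors phosphatase to glycogen, fell by 0.63 ± 0.07. Pfkfb3, which makes the activator of phosphofructokinase, fell by 1.09 ± 0.29 with wide spread (1234 to 3116 in WT, 388 to 1021 in BKO).

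Amino acid and creatine metabolism leaned upward, with 18 of 61 up and 7 down (median 0.20). Bckdha, of the branched-chain ketoacid dehydrogenase, rose from 636 to 803 to 1033 to 1194. Glul, glutamine synthetase, read 2360, 2000, 2256, 1872 and 1729 in WT and 754, 695, 917, 962 and 767 in BKO (-1.32 ± 0.12), and Odc1, the first enzyme of polyamine synthesis, fell by 1.29. Among 90 carriers and pumps, 11 rose and 14 fell. The chloride cotransporter Slc12a2 (-1.44) and the cationic amino acid carrier Slc7a2 (-1.402) fell on the log2 scale. Of 66 antioxidant and metal-binding genes, 14 rose and 4 fell, the latter including Gpx3, a secreted peroxidase (906 to 1349 in WT, 367 to 551 in BKO).

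**Figure D3:**
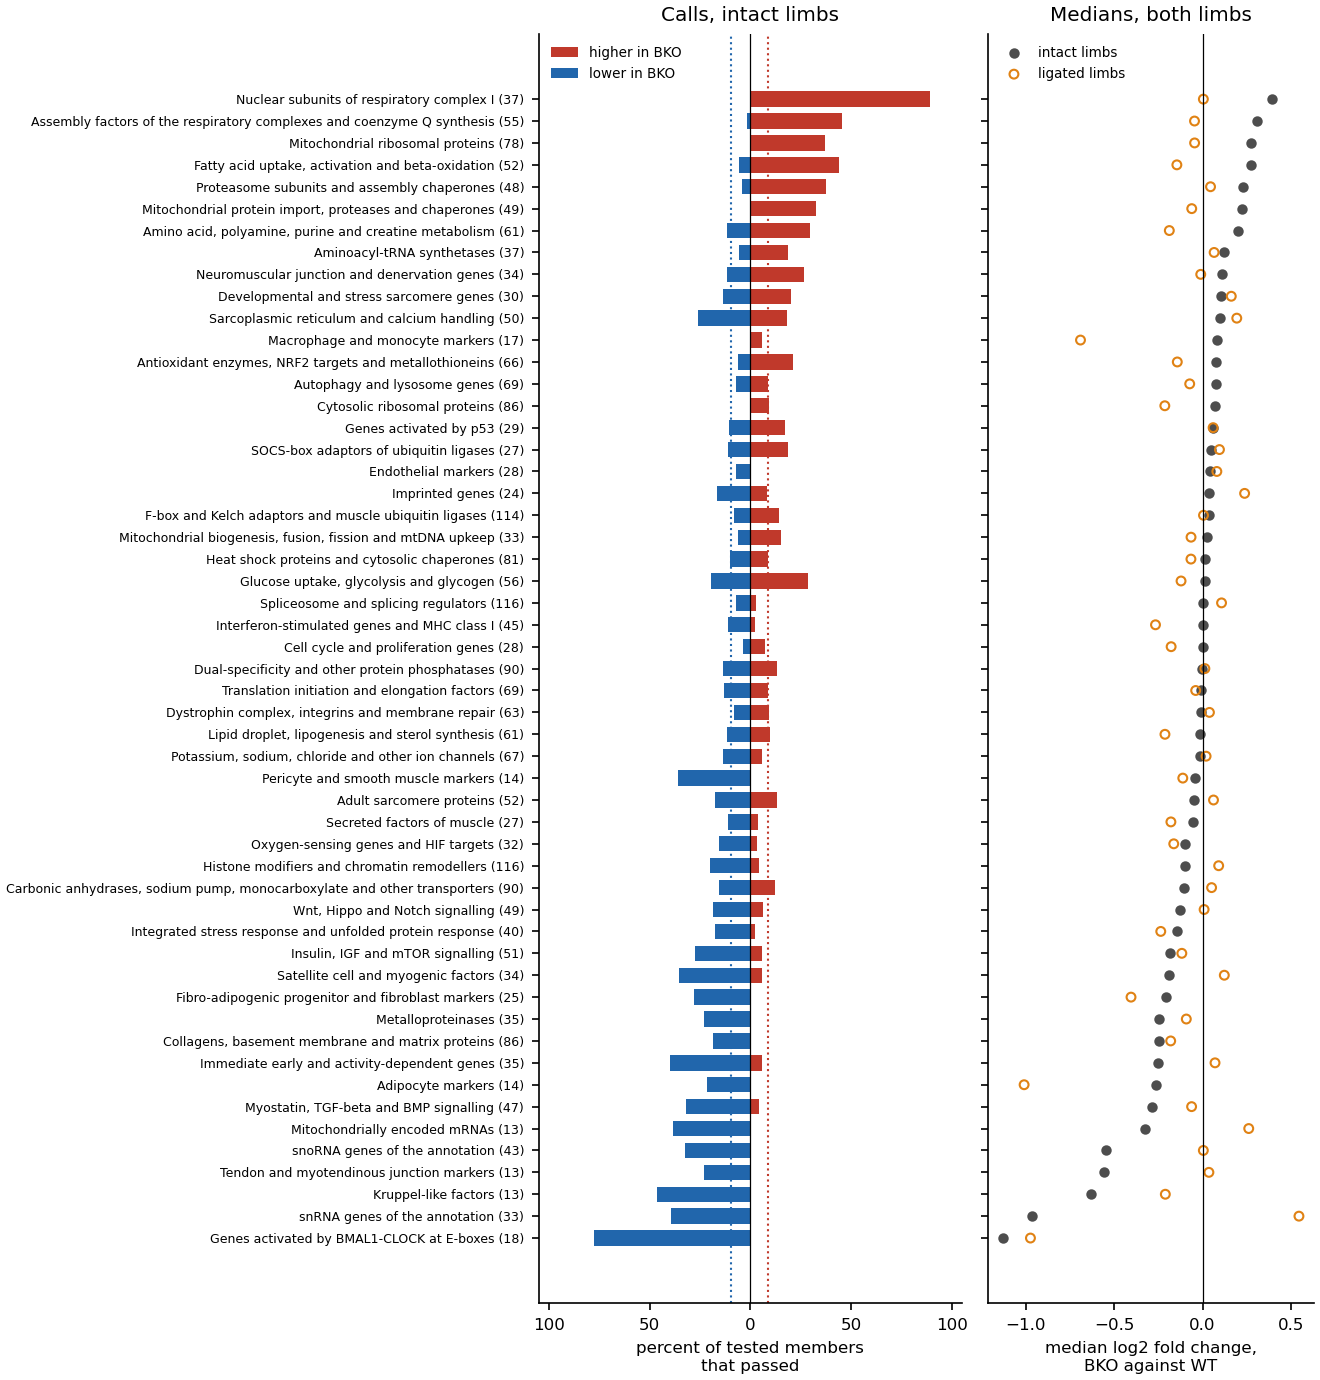
Lists with at least 12 tested members are ordered by median log2 fold change, with the number tested in brackets; bars give the percent of members that rose (right, red) or fell (left, blue), and dotted lines mark the shares over all genes, 8.56% and 9.75%. On the right, medians of the same lists in intact (filled) and ligated (open) limbs show complex I genes at 0.39 and 0.00 and clock targets at -1.13 and -0.97.

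Small nuclear and nucleolar RNAs, which guide splicing and RNA modification, were lower. Of 33 snRNA genes of the annotation 13 fell and none rose (median -0.96), and of 43 snoRNA genes 14 fell and none rose (median -0.55). With 1 library left out, the snRNA genes that fell numbered 8 (without BKO 4 or WT 4), 6 (without WT 3), 21 (without WT 5) and 20 (without WT 6), and the snoRNA genes 9 without WT 3. Rnu12, of the minor spliceosome, read 129, 283, 209, 91.5 and 160 in WT and 64.9, 57.9, 74.8, 59.4 and 89.0 in BKO (-1.23 ± 0.27), with the lowest WT value just above the highest BKO value. Rn7sk, which holds back transcription elongation and is in neither list, read 107041 to 161449 in WT and 92677 to 109812 in BKO (-0.38 ± 0.11). The call of Rn7sk was lost without WT library 3 or 4 or BKO library 1 or 2 (adjusted p 0.0516 to 0.0773). The listed snRNA and snoRNA genes are short, with median lengths of 164 and 144 bases, and many are repeated in near copies. After the smooth on length and GC content 6 of each list fell, with medians of -0.50 and -0.14.

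The direction of change moved with transcript length across all genes. Among the 1219 shortest genes (102 to 1316 bases) 15.3% of genes rose and 5.25% fell, and among the 1219 longest (6942 to 123179 bases) 4.84% rose and 19.5% fell. Across 12188 genes, which are not independent replicates, Spearman's rho of length with log2 fold change was -0.20 in intact limbs and 0.14 in ligated limbs. With the smooth on length and GC content, 1048 genes were higher and 974 lower, and 1728 of the 2246 calls were kept in the same direction. The lists of long genes that fell below, of chromatin, matrix and insulin signalling, have median lengths of 5257 to 6370 bases.

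**Figure D4:**
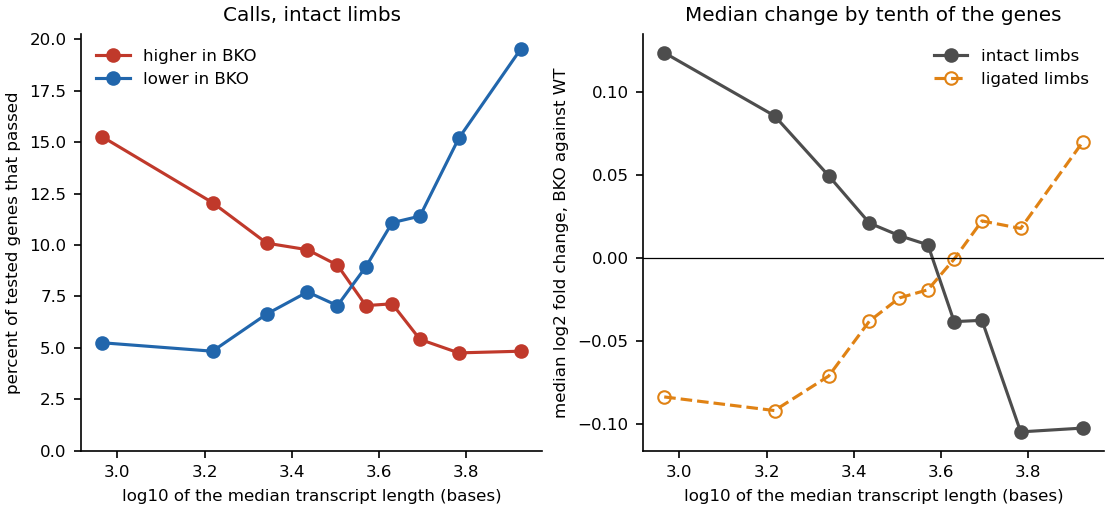
Genes are split into 10 equal groups by transcript length, with log10 of the median length on the x axes. On the left, the percent that rose (red) goes from 15.3% in the shortest to 4.84% in the longest group and the percent that fell (blue) from 5.25% to 19.5%; on the right, the median log2 fold change slopes down in intact limbs (filled) and up in ligated limbs (open).

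Of 116 histone modifiers and chromatin remodellers, 23 fell and 5 rose, with a median of -0.10 (-0.01 after the smooth, with 15 falls and 8 rises). Kmt2d, a histone methyltransferase with a long transcript, read 1434, 1983, 1955, 1429 and 1383 in WT and 631, 458, 757, 690 and 945 in BKO (-1.25 ± 0.16). Tet2, a DNA demethylase, rose from 289 to 347 to 504 to 617. Of 116 splicing genes, 8 fell and 3 rose (5 rose without WT 2), a share of 9.48% against 18.3% over all genes. Mbnl1, which sets adult splice forms in muscle, went from 7780 ± 315 (SD, n = 5) to 5457 ± 124 (SD, n = 5), and Rbm20, a titin splicing factor, fell by 0.88.

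Kruppel-like factors had the lowest median of the 112 symbol families, -0.63, with 6 of 13 down and none up. Klf2 read 83.9, 97.1, 119, 73.2 and 72.3 in WT and 41.8, 33.7, 45.3, 44.4 and 50.9 in BKO, and Klf6 fell by 0.70. Of 35 immediate early and activity-dependent genes, 14 fell and 2 rose (median -0.25). Jun, a subunit of AP-1, read 666, 730, 1014, 720 and 638 in WT and 317 to 347 in BKO (-1.15 ± 0.12), and the nuclear receptor Nr4a1 went from 731 to 1183 to 396 to 604. Atf3, a stress-induced factor, was 1 of the 2 that rose (5.02 to 15.8 in WT, 16.9 to 46.9 in BKO). Of 40 genes of the integrated stress and unfolded protein responses Atf3 alone rose and 7 fell, among them Herpud1 (-0.68 ± 0.08), a part of degradation from the endoplasmic reticulum.

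Growth factor pathways leaned downward. In the TGF-beta, BMP and myostatin pathway 15 of 47 genes fell and 2 rose (median -0.28). Of its ligands Tgfb3 rose (274 to 312 in WT, 437 to 606 in BKO), and of its receptors Acvr1b, the type I receptor for activin and myostatin, fell from 598 ± 79.0 (SD, n = 5) to 288 ± 40.2 (SD, n = 5) and the coreceptor Tgfbr3 fell by 0.71. In insulin, IGF and mTOR signalling 14 of 51 fell and 3 rose (median -0.18). Igfbp5, the main IGF-binding protein of muscle, read 3962 to 6507 in WT and 1549 to 2529 in BKO, and the insulin receptor substrate Irs2 read 161 to 190 and 86.6 to 115. Gsk3b, the kinase of glycogen synthase, fell by 0.55, and Grb14, an adaptor that inhibits the insulin receptor, rose by 1.08 ± 0.16. In Wnt, Hippo and Notch signalling 9 of 49 fell and 3 rose, Dkk3 and Tead4 among them.

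Satellite cell and myogenic genes fell in 12 of 34 cases and rose in 2, with a median of -0.19. Without BKO library 2 the falls numbered 7, and after the smooth on length and GC content 8, with a median of -0.10. Among the factors of fibres, Nfix, which drives the switch to fetal genes, fell from 1508 to 2654 to 959 to 1228, and Mef2d fell by 0.62. Sdc4, a surface proteoglycan of satellite cells, rose (122 to 195 in WT, 276 to 348 in BKO). At the neuromuscular junction 9 of 34 genes rose and 4 fell (2 without WT 3, 5 or 6 or BKO 2, 3 or 4). Chrna1 and Chrnb1, subunits of the acetylcholine receptor, read 68.4 to 82.8 and 181 to 219 in WT and 124 to 187 and 352 to 488 in BKO. Of 67 ion channel genes 9 fell and 4 rose (2 without BKO 1 or BKO 3), and the potassium channels Kcnc1 and Kcnc4 fell by 0.94 and 1.02.

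Adult sarcomere genes split, with 7 of 52 up and 9 down. Tcap, the titin cap of the Z-disc, read 12516, 11566, 11743, 12839 and 12871 in WT and 5918, 6834, 6583, 6261 and 5744 in BKO (-0.97 ± 0.09). Ky, a Z-disc protein with a transglutaminase fold, and Synpo2, an actin-binding protein of the Z-disc, fell by 1.08 and 0.74. Trim63, the ligase MuRF1 that marks sarcomere proteins for breakdown, rose from 910 to 1238 to 1579 to 2387. In calcium handling 9 of 50 rose and 13 fell: next to the rises of Mrln and Casq2 and the fall of Ryr1, Jph2, which ties the release channel to the surface membrane, and the calmodulin gene Calm2 fell by 0.69 and 0.65. Of 63 genes of the dystrophin complex, integrins and membrane repair, 6 rose and 5 fell (3 without BKO 2), with the linker Tln2 up by 0.76 and plectin (Plec) down by 0.74.

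In protein turnover, 18 of 48 proteasome subunit and chaperone genes were higher and 2 lower (median 0.23). Without BKO library 4 the count higher was 11, and with the replicate block over the 8 libraries with shared numbers it was 5. Psmb7, a catalytic subunit, went from 969 to 1073 to 1150 to 1358 (0.34 ± 0.07), and Psmd8, of the regulatory particle, fell by 0.49. Their median length was 1931 bases, and 8 rose after the smooth on length and GC content (median 0.10). Cytosolic ribosomal proteins changed little, with 8 of 86 up and none down, a share (9.30%) near that of all genes. Of 69 translation factors 6 rose and 9 fell, with Eif3i up by 0.58 and Eif1 and Eif4g3 down by 1.03 and 0.77. Among SOCS-box adaptors of ubiquitin ligases 5 of 27 rose and 3 fell, Asb2 up by 0.71 and Asb15 down by 1.19.

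Matrix genes fell where they passed. Of 86 collagens, basement membrane and matrix proteins 16 fell and none rose (median -0.25, -0.12 after the smooth with 9 falls), and of 35 metalloproteinases 8 fell and none rose (4 fell without BKO 2, 5 without BKO 4 or WT 6). Nid1, a basement membrane protein, went from 983 to 1214 to 640 to 957, and the protease Adamts5 from 250 to 290 to 121 to 185. The proteoglycan Dcn fell by 0.45 ± 0.13, a call that was lost without WT library 4, BKO library 3 or BKO library 5 (adjusted p = 0.0549, 0.0520 and 0.0524). Tnxb, tenascin X, fell by 0.57 and missed the threshold after the smooth (adjusted p = 0.108).

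Markers of other cell types were read beside these genes. Of 25 fibroblast and progenitor markers 7 fell, led by Dkk3, Aebp1 and Npr3, and none rose (4 fell without BKO 5, 3 without WT 4), and the summed level of the list was 13460 to 16119 in WT and 8494 to 13648 in BKO. Tendon markers summed to 1490 to 2320 and 1392 to 1736, with 3 of 13 lower (1 without BKO 2 or WT 3), among them Fmod (204 to 438 in WT, 141 to 243 in BKO). Endothelial markers summed to 6978 to 7887 in WT and 7039 to 8462 in BKO, with 2 of 28 lower, Stab2 and Rgcc, a regulator of the cell cycle. Of 14 pericyte and smooth muscle markers 5 fell, among them the receptor Pdgfrb (-0.37 ± 0.08). Of 14 fat markers 3 fell and none rose, and their sum was 14714 to 20461 in WT and 2561 to 2943 in BKO. That list includes Car3, whose values, given above, made up most of the sum in every WT library. The fall of the sum is therefore largely the fall of that 1 gene. Adipoq was low in all libraries (2.96 to 32.3 in WT, 0.889 to 8.43 in BKO), as was Cidec (2.89 to 14.2 and 3.56 to 20.7), both with overlap. The hormone gene Lep fell from 2.96 to 14.2 to 0.837 to 1.97. Its call was lost with a pseudocount of 5 (limma adjusted p = 0.0923). The part of cell mixture in the falls of Car3, which fat also expresses, and of the matrix genes was not tested.

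Some immunoglobulin genes stood out among immune genes. Ighm (ENSMUSG00000076617, chromosome 12, 113418558 to 113422730), the constant region of the mu heavy chain, read 403, 259, 267, 262 and 229 in WT and 3146, 3062, 2948, 1751 and 1705 in BKO (log2 fold change 3.12 ± 0.26, limma adjusted p = 5.35e-08). All 5 BKO values stood above all WT values; reads of constant regions can be shared among near copies. Its partners in a B cell did not reach that level in any of the 10 libraries: Cd79a stayed at 2.11 or below, Cd79b at 3.01 and Ms4a1 at 2.89, and Pax5 was at 0 in all 10. Igha read 2.58, 3.55, 0, 0 and 0 in WT and 32.0, 212, 1.97, 13.4 and 5.09 in BKO, and passed with 1 BKO value inside the WT range. Igkc and Jchain, the kappa constant region and the joining chain, did not pass (adjusted p = 0.107 and 0.108). BKO library 2 held the highest value of Igha, Igkc (74.8) and Jchain (52.7), and BKO library 3, without which Igkc and Jchain passed (0.00211 and 0.0113), read 0 for both. Of 38 lymphocyte markers listed 8 had enough reads to be tested, and of these 2 rose and 1 fell. Of 4 tested immunoglobulin constant regions 2 rose and 0 fell. Ighg2c, which did not pass, averaged 14.7 in WT and 8.84 in BKO. Ptprc, which marks white blood cells, read 159 in BKO library 5 and 23.6 to 48.2 in the other 9 libraries. Of 17 macrophage markers 1, Lgals3, rose (2.96 to 18.95 in WT, 17.9 to 39.4 in BKO) and none fell. Of 45 interferon-induced genes 5 fell and 1, Rsad2, rose, a share of 13.3% against 18.3% over all genes. The falls numbered 2 without BKO 3, WT 2 or WT 4, and 3 without BKO 4 or WT 5. Ifit3b fell from 40.1 to 76.1 to 4.92 to 13.6. The imprinted factor Peg3 rose by 1.06 ± 0.11.

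The same genotype contrast in ligated limbs, which shares no library with the contrast above, gave 1084 calls (8.84%). The labels do not say whether same-numbered intact and ligated libraries come from 1 mouse, so the limbs may not be independent. The fit treats the 18 libraries as unrelated. Of the 1050 genes that rose in intact limbs, 692 had the same sign in ligated limbs and 213 also passed there, while 19 passed in the opposite direction. Of the 1196 that fell, 842 had the same sign, 234 passed and 14 passed in the opposite direction. Median log2 fold changes were 0.47 in intact and 0.11 in ligated limbs for the former set and -0.57 and -0.16 for the latter, values that lean toward intact limbs because the sets were chosen there. The difference of the genotype effect between limbs, tested as an interaction over the 18 libraries, passed for 737 genes (6.01%), among them 227 of the genes that rose and 271 of those that fell. When libraries were scaled to reads without mitochondrial genes the median difference over all genes shifted to -0.16 (-0.01 as deposited), and 1297 genes passed, 1064 of them with a negative difference. The share of mt-Rnr2 was 38.1% to 45.3% in WT and 40.9% to 55.5% in BKO ligated libraries, and its part in the difference between limbs was not tested beyond that scaling.

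**Figure D5:**
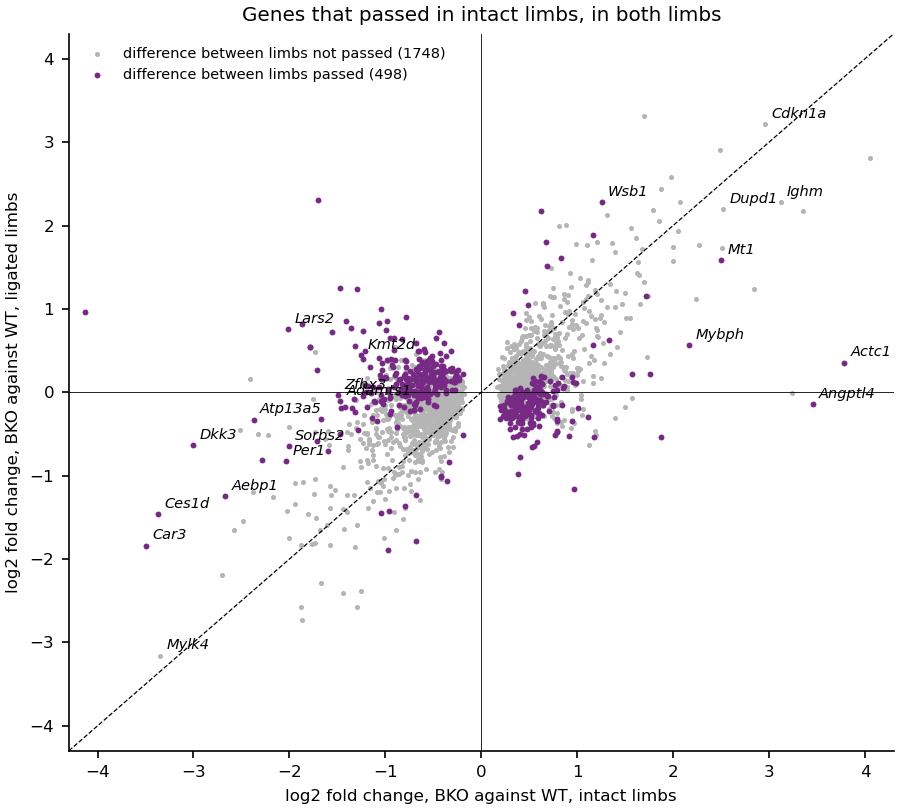
Points are the 2246 genes that passed in intact limbs, with the log2 fold change of BKO against WT in intact limbs on the x axis and in ligated limbs on the y axis; the dashed line marks equal effects. Purple points (498) are genes whose effect differed between limbs, and many of them, such as Actc1 and Angptl4, lie near 0 on the y axis.

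Most clock targets were lower in both limbs: Nr1d2 and Tef changed by -1.68 and -1.16 in intact and -1.66 and -1.14 in ligated limbs, and 12 of the 18 listed targets fell in ligated limbs. Per1 had a log2 fold change of -0.82 there and Bhlhe41 of -0.19 (limma adjusted p = 0.48), and the difference between limbs passed for both. Mylk4 fell by 3.16 in ligated limbs, Dupd1 rose by 2.20 and Cdkn1a by 3.21, with no difference called. Car3 read 17453 to 24249 in WT and 4904 to 6618 in BKO ligated muscle, a fall of 1.84 on the log2 scale against 3.50 in intact muscle (difference 1.66 ± 0.17, limma adjusted p = 4.96e-05). Actc1 read 807 to 1557 in WT ligated and 736 to 2682 in BKO ligated muscle, with overlap, and its rise differed by -3.43 ± 0.45. Angptl4 was at 27.2 to 53.1 and 18.99 to 63.8 in ligated muscle, a difference of -3.60 ± 0.48. WT levels of both genes were higher in every ligated than in every intact library, while BKO levels of Angptl4 and Actc1 overlapped between the limbs.

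Mitochondrial genes differed between the limbs. Of the 37 nuclear complex I genes 2 rose in ligated limbs (median 0.00), and the interaction passed for 14. The 5 mitochondrial mRNAs that fell in intact limbs had positive log2 fold changes in ligated limbs, such as mt-Nd5 with 0.39 ± 0.18, none of which passed, and the interaction passed for mt-Nd2, mt-Nd4, mt-Nd5 and mt-Nd6. Fatty acid genes had a median of -0.14 in ligated limbs, with 2 up and 7 down, and the interaction passed for 18 of 52, Hadhb among them (difference -0.76 ± 0.16). The snRNA genes had a median of 0.55 in ligated limbs, with 2 up and none down, and the interaction passed for 8 of 33. After the smooth on length and GC content the interaction passed for 451 genes in all, and for 2 complex I and 16 fatty acid genes.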

How the data were processed

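RNA of tibialis anterior was sequenced after a stranded library preparation from total RNA, according to the labels' protocols. Per the submitters' processing notes, the tools were Trimmomatic 0.33, STAR 2.5.2, RSEM 1.3.3 and DESeq2 on genome build mm10. The sources used here state neither what each tool did nor the annotation or strand setting. The deposited values are normalized counts, a signal in which each library's values are whole numbers divided by 1 size factor (100% whole within a tolerance of 0.001), so whole reads were recovered for count tests. Gene positions, symbols and lengths came from GENCODE annotation of mm10, matched on gene ID for 20643 of 20922 genes.

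One limma 3.58.1 fit (R 4.3.3, trended variance) of the 4 group means over 18 libraries used log2(normalized count + 1) of genes with a mean of at least 10. Fold changes are on that scale, which understates changes of low genes. An adjusted p is Benjamini-Hochberg over all 12262 genes, with a threshold of 0.05. Single values were compared by exact permutation. Alternatives were edgeR 4.0.16 quasi-likelihood and DESeq2 1.42.0 on whole reads, other pseudocounts, filters and scalings, a replicate block, and each library left out; a smooth of log2 values on transcript length and GC content per library was chosen after seeing the data. Tested on simulated data for this comparison over 12262 genes, the fit recovered 52.2%, 82.1% and 100.0% of changes of 1.5, 2 and 4-fold, and 6.02% of its calls were false. Those changes were planted in 67, 67 and 66 genes, drawn above a higher WT level than the filter asks for. Recovery at the lowest levels, or with as many changed genes as were called, was not tested. Chi-square divided by its degrees of freedom was 7.35 to 26.5 over the 20 pairs of intact libraries within a group, so none was counted as a repeat. The labels do not say what a replicate number marks, so the numbers were not taken as pairs. Deviations of same-numbered WT and BKO libraries from their group means correlated by -0.06 to 0.08, and a shared litter or day was not tested. Figures and tables were made with Python 3.11.15.

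Genes are named where they are Bmal1, among the 30 largest rises or falls without overlap and with a mean of at least 50, among the 10 most abundant calls in each direction, or among up to 5 leading members of a gene list or symbol family; genes read as markers are given besides, and a few genes are not reported here. The members and lists were chosen with earlier results of these data known. The lists of mitochondrial mRNAs, snRNA and snoRNA genes were added after seeing the data.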

Additional observations from a re-analysis of the deposited data

Results flagged for a closer look

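Single libraries stood apart from the other 4 of their group for 17 of 354 groups examined (Dixon's criterion), where chance flags about 1 in 20. Some genes given only as markers or for their promoter windows were not examined. Among them, Ptprc (159 in BKO library 5) and Myh6 (101 in BKO library 2) each had 1 value far above the other BKO values. In WT these were high values of Sdc4 (195), Eif4g3 (2012) and Lrtm2 (199) in library 3, Jun (1014) in library 4, Chrnb1 (219) in library 5, Miga2 (105.4) in library 6 and Ighm (403) in library 2, and low values of Ankrd23 (12622) in library 4 and Cry1 (76.1) in library 2. In BKO they were high values of Rgcc (66.0), Nr4a1 (604) and Agt (249.1) in library 3 and of Jchain (52.7) and Igha (212) in library 2, and low values of Pfkfb3 (388) and Tpbgl (119) in library 4 and Coq9 (2471) in library 5, all in normalized counts.

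The knockout effect differed between limbs, by limma's interaction test, for 59 of the 174 named genes. The values are the ligated minus the intact log2 fold change. Among clock genes it was 1.21 for Per1, 1.16 for Bhlhe41 and 2.21 for Arntl, which was higher in BKO than in WT in ligated muscle.

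Among genes that fell in intact limbs, differences were positive for Klf6 (0.49), Klf2 (0.93), Jun (1.15), Nfix (1.00), Odc1 (0.84), Jph2 (0.54), Ryr1 (1.00), Plec (0.75), Gsk3b (0.43), Kcnc1 (0.71), Eif4g3 (0.94), Eif1 (1.296), Kmt2d (1.70), Zfhx3 (1.46) and Otud1 (1.34). They were also positive for the large falls of Aebp1 (1.43), Npr3 (1.47), Rai14 (0.90), Adamts1 (1.36), Car3 (1.66), Dkk3 (2.37), Sorbs2 (1.36), Lars2 (2.77), Atp13a5 (2.04), Ces1d (1.91), Tmem100 (1.13), Tpbgl (0.97) and Rnu12 (1.64). For mitochondrial mRNAs they were 0.97 for mt-Nd2, 0.99 for mt-Nd4, 1.37 for mt-Nd5 and 0.95 for mt-Nd6. They were negative for Tcap (-0.91), Adamts5 (-0.57), Herpud1 (-0.54) and Pdp1 (-0.46), which had a larger fall in ligated limbs.

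Among genes that rose in intact limbs, differences were negative for Cox5a (-0.42), Cox8b (-0.58), Atp5b (-0.41), Atp5a1 (-0.41), Mrpl45 (-0.60), Coq9 (-0.56), Cars2 (-0.88), Tars2 (-0.70), Hadha (-0.47), Hadhb (-0.76) and Bckdha (-0.90). They were negative too for Angptl4 (-3.60), Actc1 (-3.43), Lgals3 (-2.41), Mybph (-1.60), Mt1 (-0.92), Chrna1 (-0.83), Arhgap24 (-0.71) and Ypel2 (-0.56), and positive for Wsb1 (1.03).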

How the results depend on the processing

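Calls in intact limbs numbered 2017 to 2469 over the other filters, pseudocounts, scalings and tests that kept all libraries, and 1778 to 2162 (831 to 1035 higher, 947 to 1169 lower) with 1 library left out. What a replicate number marks is not stated, and deviations of same-numbered WT and BKO libraries correlated by -0.06 to 0.08. With a replicate block 2021 genes passed over 18 libraries. Over the 8 intact libraries with shared numbers 1505 (681 higher, 824 lower) passed with the block, against 1814 without it on the same libraries. The difference between limbs moved more: 737 genes passed (373 positive, 364 negative), but 1158 (587 and 571) by DESeq2, 1297 (233 and 1064) with scaling to reads without mitochondrial genes, and 451 (224 and 227) after the smooth on length and GC content, and 509 to 798 (260 to 394 and 248 to 404) with 1 library left out. The cause was not tested. The difference in total reads, 2.48 M, ranged from 1.63 to 3.26 M and passed without BKO library 2. Of 169 named genes that passed, 158 kept the call in every one of the 23 settings that tested them (157 of the 169 were tested with a mean of at least 50) and none of the 169 reversed; Dcn, Rsad2, Aldoa, Atp2a1, Tnxb, Fmod, Lep, mt-Atp8, mt-Nd6, Rn7sk and Igha missed the threshold in at least 1. Genes with few reads rarely passed, and the part of depth was not tested.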
